A study of Mus musculus with 16 samples.

Results

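The p53 pathway genes and cell cycle inhibitors described here were 10 named members, Trp53, Mdm2, Cdkn1a, Cdkn1b, Cdkn2a, Cdkn2b, Ccng1, Trp53inp1, Bax and Bbc3, out of 22907 named genes on the array. Their probes were found by matching the RefSeq accession of each probe to the gene symbols, which gave 16 probes, and the brightest of a gene's probes stood for the gene. Of the 10 genes, 9 were well above background on all 16 arrays, and Cdkn2a was not. RNA came from brown adipose tissue (BAT) and gonadal white adipose tissue (gWAT) of male mice of strain C57BL/6NCrSlc, with 4 arrays for each tissue and genotype. Adipo-Pgam1 KO mice carried Adipoq-Cre and 2 floxed alleles of Pgam1, a glycolytic enzyme gene, and the littermate controls carried the same floxed alleles without Cre. Cre was driven by the adiponectin promoter, so deletion is aimed at adipocytes and the other cells of the fat pad keep the gene. The mice were 16 weeks old, except for replicate 4 of the KO group in both tissues, which was given as 14 weeks. The series text calls the samples independent, and does not say whether animals were pooled.

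Every level below is a log2 level, the log2 of a probe's signal over the 75th percentile of its array, and every change is a difference between the mean log2 levels of 2 groups. In BAT, Pgam1 fell from 7.94 ± 0.10 to 6.20 ± 0.17 (SD, n = 4, adjusted p = 1.11e-05, limma). In gWAT it was higher in the arrays labelled KO, at 6.31 ± 0.25 against 5.36 ± 0.29 (SD, n = 4), which is against the label, and these arrays are called the gWAT arrays labelled KO throughout. Adipoq, a defining adipocyte gene, was well above background on all 16 arrays. Ucp1, which defines brown adipocytes, was well above background on all 8 BAT arrays, on 0 of 4 gWAT control arrays and on 3 of 4 gWAT arrays labelled KO. The 6 skeletal muscle markers were all above background on replicates 1 and 3 of BAT KO, against 3 of 6 on each other BAT array. Of the BAT arrays, 1 control lay on the same slide as the KO arrays, and the same held in gWAT, so genotype and slide overlap almost fully. The slide with the gWAT arrays labelled KO and that 1 gWAT control was scanned on a different day from all other arrays.

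p53, encoded by Trp53, is a transcription factor that is mostly held low by Mdm2, a ubiquitin ligase that is itself a p53 target. When p53 is stabilized it induces cell cycle inhibitors such as p21 (Cdkn1a) and death genes such as Bax and Bbc3 (Puma). p21 and p27 (Cdkn1b) bind cyclin and cyclin-dependent kinase complexes, whereas the INK4 proteins encoded by Cdkn2a and Cdkn2b bind Cdk4 and Cdk6. Cdkn2a also encodes Arf, which restrains Mdm2. In adipose tissue, p21 and the INK4 genes are widely used as markers of senescent cells.

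p53 binds DNA as pairs of a 10-base consensus element. Entries for the promoter were found in RefSeq for 9 of the 10 members, 13 in all, and the 250 bases before each listed start were searched on both strands for the p53 element. The element was in 5 of the 13 entries, those of Trp53, Mdm2, Ccng1 and Bax and 1 of the 2 entries of Cdkn1a, against 7.13% of all 32851 mouse promoter entries. Cdkn1a was the only member with a pair, 12 bases apart, and a pair no more than 13 bases apart was in 0.0639% of all entries. The box GGGCGG, also searched on both strands, was in 8 of the 13 entries against 32.7% of all, CCAAT in 5 against 33.8% and TATAAA in 1, that of Trp53, against 12.4%. By gene, GGGCGG was in 6 of the 9 members, and all 3 entries of Bbc3 held it, of which 2 overlap in sequence. The share of G and C letters was 52.8% to 81.6% in the members' entries, against a median of 52.4% over all entries. Trp53inp1 had no entry. The stretches of Cdkn1a, Mdm2 and Bax are shown because these 3 genes changed with genotype in at least 1 tissue and hold the p53 element, which is in capitals, as was also so for Trp53. All are from build GRCm38.p6, written 5′ to 3′ on the strand of the gene and ending at the base before the start.
Cdkn1a, chr17:29090729-29090978, plus strand: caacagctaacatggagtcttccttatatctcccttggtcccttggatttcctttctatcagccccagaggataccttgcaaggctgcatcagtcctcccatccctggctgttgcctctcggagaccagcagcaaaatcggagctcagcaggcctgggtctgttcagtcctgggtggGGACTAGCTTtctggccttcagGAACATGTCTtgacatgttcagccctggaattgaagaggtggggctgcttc
Mdm2, chr10:117710759-117711008, minus strand: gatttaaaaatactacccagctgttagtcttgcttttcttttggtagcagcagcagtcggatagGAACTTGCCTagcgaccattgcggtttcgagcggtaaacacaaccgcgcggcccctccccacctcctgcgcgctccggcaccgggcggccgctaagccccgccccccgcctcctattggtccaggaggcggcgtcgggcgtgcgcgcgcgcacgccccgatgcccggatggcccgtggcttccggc
Bax, chr7:45466899-45467148, minus strand: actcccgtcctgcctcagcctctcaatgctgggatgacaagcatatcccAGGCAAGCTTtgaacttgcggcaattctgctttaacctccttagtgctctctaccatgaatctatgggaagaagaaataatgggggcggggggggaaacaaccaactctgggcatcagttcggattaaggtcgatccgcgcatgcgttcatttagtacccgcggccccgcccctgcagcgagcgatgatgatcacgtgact
The elements began 73 and 51 bases before the listed start in Cdkn1a, 186 bases before it in Mdm2 and 201 bases before it in Bax. In Trp53 and Ccng1 they began 75 and 185 bases before it. The windows of Cdkn1b, Cdkn2a, Cdkn2b and Bbc3 held no match to these letters. A match describes the letters only. Binding of p53 was not measured, nor was the start used by the transcripts that the probes read.

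In BAT, Trp53, Mdm2, Cdkn2b and Bax were higher in the KO mice than in their littermate controls, by log2 changes of 1.09, 0.60, 1.78 and 1.54. These were 4 of the 9 members tested, and no member was lower. Over all 14277 genes tested in BAT, 27.5% were called higher and 61.5% were called in either direction at an adjusted p under 0.05. The share of members called higher is thus 4 of 9 beside a background of 27.5%, and the share called at all is below the background of 61.5%. The members' median change was 0.60, and the median over all genes tested was -0.08. Cdkn1a, the classical p53 target among the inhibitors, did not pass the test in BAT.

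In gWAT, Cdkn1a was higher in the arrays labelled KO by a log2 change of 2.27, which is 4.81-fold. Mdm2 also passed the test, by 0.39, and the other 8 members did not. Over all 14146 genes tested in gWAT, 9.97% were called higher, 7.85% lower and 17.8% in either direction. The members' median change was 0.37, against 0.05 over all genes.

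**Figure D1:**
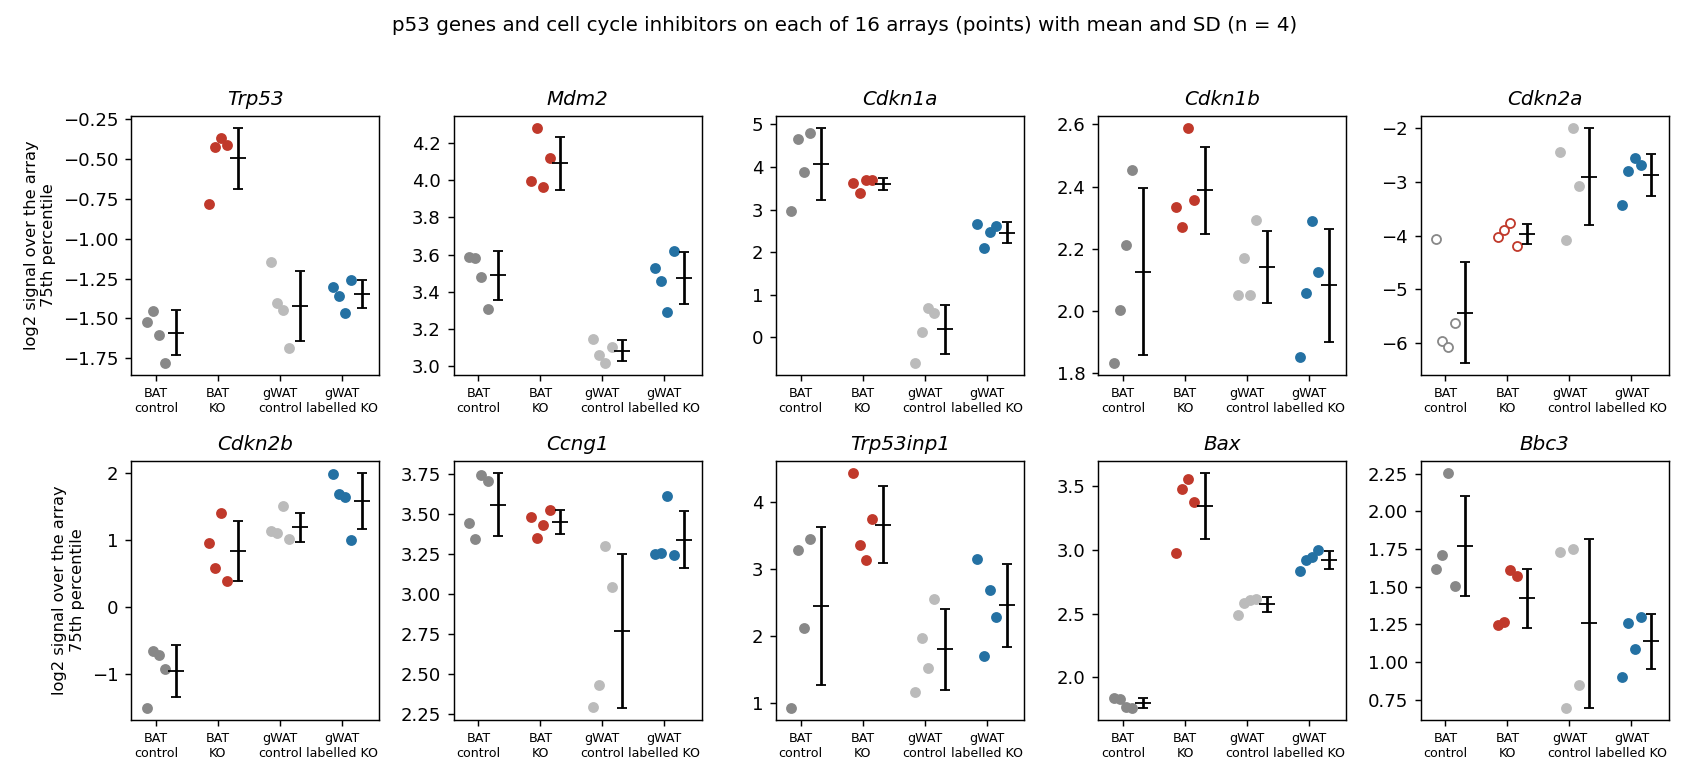
Log2 level (y axis, log2 signal over the array's 75th percentile) of each member on each of the 16 arrays, in BAT and gWAT of littermate controls and of mice labelled KO, with the mean and SD of the 4 arrays beside the points. Open points mark groups in which the probe was not well above background on all 4 arrays, and each panel has its own y axis. Trp53, Mdm2, Cdkn2b and Bax did not overlap between the BAT groups, and Mdm2, Cdkn1a and Bax did not overlap between the gWAT groups.

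Trp53 (probe A_52_P491849) had log2 levels of -1.52, -1.45, -1.60 and -1.78 in BAT of controls and of -0.78, -0.42, -0.37 and -0.42 in BAT of KO mice. The groups did not overlap, and replicate 1 of the KO group was the lowest of its group. The change was 1.09 (standard error 0.125, adjusted p = 1.15e-04, limma), a 2.13-fold higher signal. In gWAT the controls ranged from -1.69 to -1.15 and the arrays labelled KO from -1.47 to -1.26, and the KO range lay inside that of the controls. The change was 0.07 with a 95% interval from -0.24 to 0.39 (adjusted p = 0.748). Non-overlap was not rare: in BAT, 57.1% of all genes tested had groups that did not overlap, and in gWAT 24.1%.

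Mdm2 (probe A_55_P1975475), the ubiquitin ligase that acts on p53, had log2 levels of 3.58, 3.58, 3.48 and 3.31 in BAT of controls and of 3.99, 4.28, 3.97 and 4.12 in BAT of KO mice. All KO arrays were above all controls, and the change was 0.60 (standard error 0.111, adjusted p = 0.00155). This change was 0.01 (adjusted p = 0.937) when arrays were scaled on Actb and Rplp0. In gWAT the levels were 3.15, 3.06, 3.02 and 3.10 in controls and 3.53, 3.46, 3.29 and 3.62 in the arrays labelled KO. The groups did not overlap there either, and the change was 0.39 (standard error 0.117, adjusted p = 0.0491). That call was lost when any 1 of the 8 gWAT arrays was left out, with adjusted p from 0.0669 to 0.121. The dimmer second probe of Mdm2, A_55_P2606086, gave changes of 0.57 in BAT and 0.28 in gWAT, and with the mean of both probes the gWAT call was lost (0.34, adjusted p = 0.12).

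Cdkn1a (probe A_51_P363947), encoding p21, had the widest range of levels among the members over the 4 groups. In BAT of controls the log2 levels were 2.97, 4.65, 3.88 and 4.80, and in BAT of KO mice they were 3.63, 3.38, 3.69 and 3.70. The KO arrays all lay inside the range of the controls, whose SD was 0.84 against 0.15 in KO mice. The change was -0.47 with a 95% interval from -1.31 to 0.36 (adjusted p = 0.286). Without replicate 1 of the controls, the lowest of them, the change was -0.84 (adjusted p = 0.0131), so that 1 array decided whether the gene passed the test. In gWAT the levels were -0.60, 0.13, 0.68 and 0.56 in controls and 2.66, 2.10, 2.47 and 2.61 in the arrays labelled KO. Every array labelled KO was above every control, and the change was 2.27 (standard error 0.279, 95% interval 1.63 to 2.90, adjusted p = 0.00289). With slide as a fixed block it was 1.90 (adjusted p = 0.0908), a fit in which the 1 control on the KO slide carries the comparison. The second Cdkn1a probe, A_55_P1986282, was well above background on 1 of 4 control and 3 of 4 KO arrays in BAT and on 0 of 8 in gWAT, and adds no level in gWAT.

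Cdkn1b (probe A_55_P2026562), encoding p27, did not pass the test in either tissue. Its log2 levels ranged from 1.83 to 2.45 in BAT of controls and from 2.27 to 2.59 in BAT of KO mice, and the change was 0.26 (95% interval -0.07 to 0.60, adjusted p = 0.151). It was 0.16 without control replicate 1, and it passed the test without control replicate 4 (0.37, adjusted p = 0.0365) and with spike-in scaling (0.80, adjusted p = 0.0045). In gWAT the ranges were 2.05 to 2.29 and 1.85 to 2.29, and the change was -0.06 (95% interval -0.36 to 0.24, adjusted p = 0.79). The groups overlapped in both tissues.

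Cdkn2b (probe A_52_P498241), encoding the INK4 inhibitor p15, had log2 levels of -1.5, -0.65, -0.71 and -0.92 in BAT of controls. In BAT of KO mice the levels were 0.96, 0.58, 1.41 and 0.40, all above the controls. The change of 1.78 (standard error 0.259, adjusted p = 4.14e-04) was the largest among the members tested in BAT, a 3.44-fold higher signal, and the second probe, A_55_P1988183, gave 2.36. In gWAT the levels were 1.14, 1.11, 1.5 and 1.02 in controls and 1.99, 1.69, 1.65 and 0.998 in the arrays labelled KO. Replicate 4 of the latter, from the younger mouse, was below all controls and the other 3 were above them. The gWAT change was 0.39 (95% interval -0.11 to 0.89, adjusted p = 0.239), and 0.58 (adjusted p = 0.039) without that array. Without replicate 1 of the arrays labelled KO it was 0.25 (adjusted p = 0.475).

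Cdkn2a (probe A_55_P2008437), the neighbouring locus for p16 and Arf, was not well above background on any BAT control array and was so on 3 of 4 BAT KO arrays, so it was not tested in BAT and no fold is given there. All 8 gWAT arrays had it well above background, at -2.45, -4.08, -1.99 and -3.08 in controls and -3.43, -2.80, -2.55 and -2.68 in the arrays labelled KO. The change was 0.04 with a wide 95% interval, from -0.92 to 0.99 (adjusted p = 0.963). The second probe, A_51_P144813, was not well above background on any array.

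Ccng1 (probe A_52_P612803), encoding cyclin G1, a p53 target, had log2 levels from 3.34 to 3.75 in BAT of controls and from 3.35 to 3.53 in BAT of KO mice, with a change of -0.11 (adjusted p = 0.432). In gWAT the controls were spread, at 2.30, 2.44, 3.31 and 3.04, and the arrays labelled KO stood at 3.25, 3.26, 3.61 and 3.25. The change of 0.57 did not pass the test (standard error 0.234, adjusted p = 0.12). Trp53inp1 (probe A_51_P175580), a stress-induced p53 target, was at 0.92, 3.28, 2.12 and 3.45 in BAT of controls and at 4.43, 3.35, 3.13 and 3.74 in BAT of KO mice. The groups overlapped, and the change was 1.22 (standard error 0.551, adjusted p = 0.0843). Control replicate 1 was the lowest control for both Trp53inp1 and Cdkn1a in BAT, and without it the Trp53inp1 change was 0.71 (adjusted p = 0.163). The gene passed the test without control replicate 4 (1.55, adjusted p = 0.0394), with normexp background correction (1.24, adjusted p = 0.0482) and with spike-in scaling (1.75, adjusted p = 0.022). With slide as a fixed block the Trp53inp1 change in BAT was 0.21 (adjusted p = 0.849). In gWAT it ranged from 1.16 to 2.54 in controls and from 1.70 to 3.15 in the arrays labelled KO, with a change of 0.66 (adjusted p = 0.241). Its second probe, A_55_P1973906, gave 0.80 in BAT and 0.85 in gWAT.

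Bax (probe A_55_P2137406), a pore-forming death protein of the Bcl2 family, had log2 levels of 1.83, 1.83, 1.77 and 1.76 in BAT of controls and of 2.97, 3.47, 3.55 and 3.37 in BAT of KO mice. The groups were far apart, and the change was 1.54 (standard error 0.133, adjusted p = 2.98e-05), a 2.91-fold higher signal. The second probe, A_51_P254541, gave 1.28. In gWAT the levels were 2.49, 2.58, 2.61 and 2.61 in controls and 2.83, 2.92, 2.94 and 2.99 in the arrays labelled KO. The groups did not overlap, but the change of 0.35 (standard error 0.106) had an adjusted p of 0.0519 and did not pass the test, and the second probe gave 0.70. It passed with the mean of both probes (0.52, adjusted p = 0.0137), with spike-in scaling (0.78, adjusted p = 0.022), in the fit on all 16 arrays (adjusted p = 0.0308) and with the methods' t-test. Bbc3, a BH3-only killer protein that activates Bax, (probe A_51_P248122) did not pass the test in either tissue. It ranged from 1.5 to 2.25 in BAT of controls and from 1.24 to 1.61 in BAT of KO mice, a change of -0.35 (95% interval -0.75 to 0.06, adjusted p = 0.119). In gWAT the ranges were 0.70 to 1.75 and 0.90 to 1.30, and the change was -0.12 (adjusted p = 0.785).

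**Figure D2:**
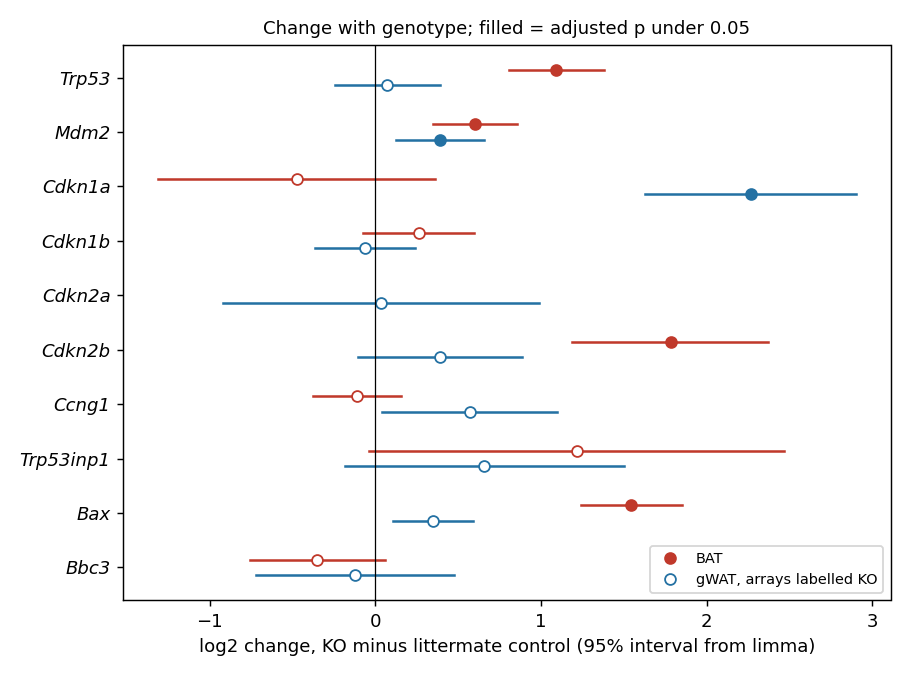
Log2 change (x axis) from littermate controls to mice labelled KO for each member in BAT and gWAT, with the 95% interval from limma (4 arrays per group). Filled points have an adjusted p under 0.05, and Cdkn2a has no BAT point because it was not tested there. The interval of Cdkn1a lay above 1.6 in gWAT and spanned 0 in BAT, and those of Trp53, Cdkn2b and Bax lay above 0.8 in BAT.

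The change in gWAT was then compared with the change in BAT in a fit on all 16 arrays, in which 5 of the 10 members differed, against 48.3% of the 14817 genes tested. The change of Cdkn1a was more positive in gWAT, with a difference of 2.74 (standard error 0.492, adjusted p = 4.67e-04). Those of Trp53, Cdkn2b and Bax were less positive in gWAT, with differences of -1.02 (adjusted p = 4.40e-04), -1.39 (adjusted p = 0.00519) and -1.19 (adjusted p = 5.40e-05). For Cdkn2b the difference was -1.20 (adjusted p = 0.167) with slide as a fixed block. Ccng1 was at the threshold, with a difference of 0.68 (adjusted p = 0.0494), and passed the test in 3 of the 16 fits that left out 1 array. Mdm2 had changes of 0.60 and 0.39, and the difference was -0.21 with a 95% interval from -0.53 to 0.11. These differences contain the gWAT arrays labelled KO, in which Pgam1 was higher.

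Between the tissues of littermate controls, 6 of the 10 members were called, against 67.7% of 14301 genes. They include Cdkn2a, which was tested only because it was above background in gWAT, and of the 9 members well above background on every array 5 were called. In this comparison 3 of 4 BAT controls lay on 1 slide and 3 of 4 gWAT controls on another, so tissue and slide overlap. Cdkn1a was 14.8-fold lower in gWAT than in BAT (log2 difference -3.88, standard error 0.346, adjusted p = 1.74e-07), with no overlap. Ccng1 and Mdm2 were also lower in gWAT, by -0.79 and -0.41. The call of Mdm2 was lost with slide as a fixed block (-0.23, adjusted p = 0.261), with quantile normalization, with normexp and with spike-in scaling. Cdkn2b was 4.40-fold higher in gWAT (2.14, adjusted p = 2.88e-06) and Bax was higher by 0.77. Cdkn2a was well above background on 4 of 4 gWAT and 0 of 4 BAT control arrays, and its mean of -2.90 in gWAT was at least 2.09-fold above the lowest signals that were well above background on the BAT control arrays. The lowest gWAT control, at -4.08, lay just below the highest BAT control, at -4.06, so the groups overlapped, and the exact permutation test gave p = 0.0571 (two-sided).

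Between BAT of KO mice and the gWAT arrays labelled KO, 5 members were called, against 46.3% of 14446 genes. All BAT KO arrays lay on 1 slide and all gWAT arrays labelled KO on another, scanned on a different day. Tissue, slide and scan day thus cannot be told apart in these differences. Trp53, Mdm2, Cdkn1a and Bax were lower in gWAT, by -0.85, -0.62, -1.14 and -0.42, and Cdkn2b was higher by 0.75 (adjusted p = 0.0254). With slide fitted as a fixed block the call of Mdm2 alone remained (adjusted p = 0.0483), and with spike-in scaling that call was lost (adjusted p = 0.0764). The call of Bax was lost with median centring, spike-in scaling and Actb and Rplp0 scaling, and that of Cdkn1a without the BAT KO arrays that held muscle transcripts (-1.08, adjusted p = 0.0807). The Cdkn2b call was lost without any 1 of 5 arrays: BAT KO replicates 2 and 4 and replicates 1, 2 and 3 of gWAT labelled KO, where adjusted p lay between 0.0557 and 0.0855. In order of mean level, Cdkn1a ran from BAT of controls through BAT of KO mice and gWAT labelled KO to gWAT of controls, and only the first 2 overlapped. For Cdkn2b the order was gWAT labelled KO, gWAT of controls, BAT of KO mice and BAT of controls, and BAT of controls alone did not overlap with its neighbour. For Trp53 it was BAT of KO mice, gWAT labelled KO, gWAT of controls and BAT of controls, and the first did not overlap with the next. For Bax, BAT of KO mice came first and overlapped with gWAT labelled KO, which was separate from gWAT of controls, itself separate from BAT of controls.

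Median centring, spike-in scaling and Actb and Rplp0 scaling shift the changes of all genes together, whereas quantile normalization and normexp moved genes by different amounts. With normexp in BAT, the change of Trp53 was 0.80 and that of Bax 1.68, against 1.09 and 1.54. With spike-in scaling, the median change over all genes was 0.46 in BAT and 0.48 in gWAT, and with Actb and Rplp0 scaling it was -0.67 in BAT. Trp53, Cdkn2b and Bax were called higher in BAT under each of the 5 other scalings, while Cdkn1a, Ccng1 and Bbc3 were called lower in BAT with Actb and Rplp0 scaling and had positive changes with spike-in scaling. The Cdkn1a change in gWAT lay between 2.08 and 2.70 under these scalings, and the call held in each.

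**Figure D3:**
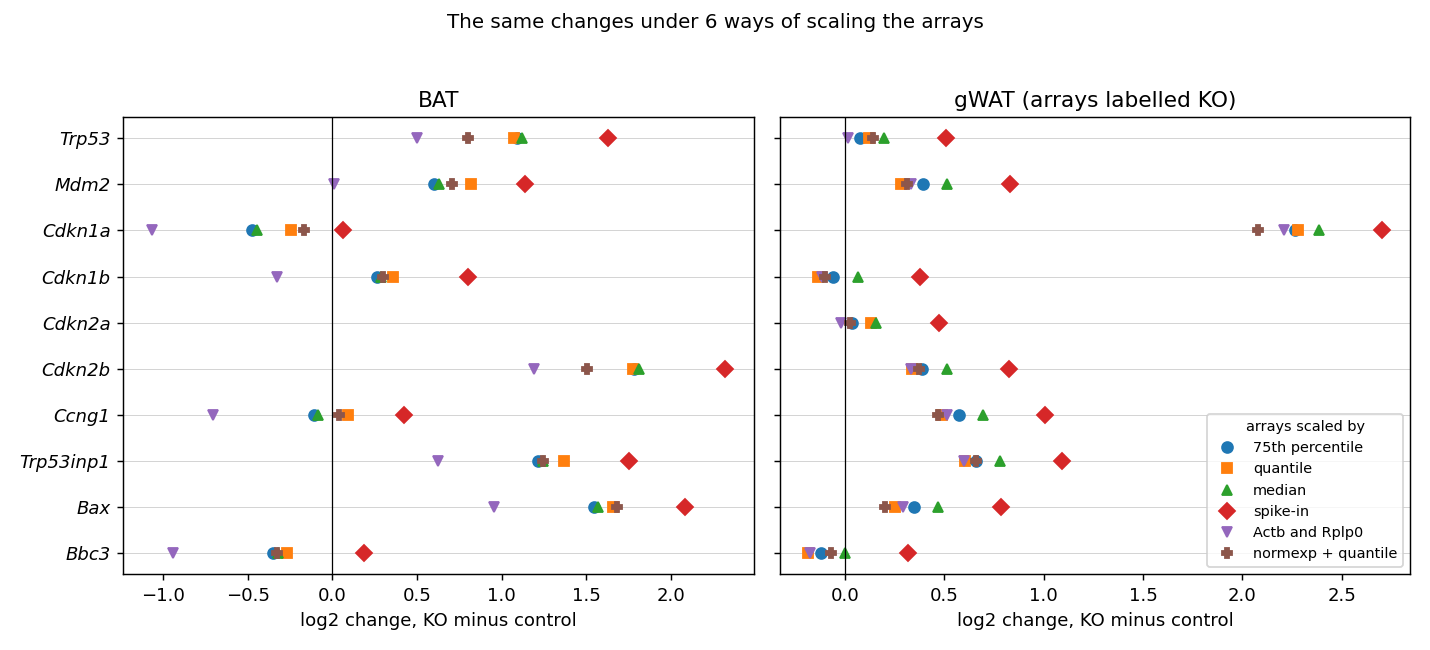
Log2 change (x axis) from controls to mice labelled KO for each member in BAT and gWAT, with arrays scaled in 6 ways (symbols). Quantile normalization and normexp moved genes by different amounts, and the Cdkn1a change in gWAT stayed above 2 in each scaling.

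Among 33 other p53 target genes tested in BAT, 16 were higher and 3 lower in KO mice, beside 27.5% higher and 34.0% lower over all genes, and their median change was 0.50. Gadd45a, a growth arrest gene, was higher by 5.22 (standard error 0.247, adjusted p = 3.49e-06), from -2.09 ± 0.51 to 3.14 ± 0.23 (SD, n = 4). Psrc1, a spindle protein gene, was not well above background in controls and was at least 8.24-fold higher. A gene could be tested on the strength of the KO arrays alone, as Psrc1 was, and Nqo1, Cdk1 and Top2a in the lists below. The counts of higher genes include such genes, and the shares over all genes were counted under the same rule. Rrm2b, a p53-induced ribonucleotide reductase subunit, was lower by -0.89 and Ei24 by -0.57. Several of the 16, such as Gtse1, Ckap2 and Psrc1, are also expressed in dividing cells.

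In gWAT, 6 of 33 other p53 targets were higher and 2 lower, beside 9.97% and 7.85% over all genes, with a median change of 0.03. With 1 array left out, the number higher fell to as few as 1 and the number lower to as few as 0. Gadd45a was higher by 1.39 (adjusted p = 0.0372) and Tigar, which limits glycolysis by lowering fructose-2,6-bisphosphate, by 1.09 (adjusted p = 0.0279). Bcl6, a transcriptional repressor, was lower by -1.14 and Pidd1 by -0.69. The 12 genes of the related lists called higher in gWAT became 2 with replicate numbers as a block and 0 with slide as a fixed block.

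Of the regulators of p53 and the DNA damage kinases, 4 of 22 were higher and 5 lower in BAT, and both shares lay below those over all genes, 27.5% and 34.0%. Chek2, a checkpoint kinase, was higher by 0.95 in BAT and by 0.97 in gWAT (adjusted p = 6.01e-04 and 0.00737). Hipk2, a kinase that phosphorylates p53, was lower by -1.04 and Trp63, a p53 family member, by -0.91 in BAT. Nqo1, which protects p53 from degradation, was higher by 3.0 in BAT and was well above background on 3 of 4 controls. In gWAT, 1 of 21 was higher and 2 lower, beside 9.97% and 7.85% over all genes. Mdm4, the partner of Mdm2 in restraining p53, was lower there by -0.95 (adjusted p = 0.00247).

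Of the other cyclin-dependent kinase inhibitors and pocket proteins, 3 of 11 were higher and 5 lower in BAT, beside 27.5% and 34.0% over all genes, with a median change of -0.32. Cdkn2c, the INK4 inhibitor p18, was lower by -2.36 (standard error 0.125, adjusted p = 5.46e-06) and Cdkn1c, the inhibitor p57, by -1.40. Cdkn3, a phosphatase expressed in dividing cells, was higher by 2.40 and Rbl1 (p107) by 1.57. In gWAT, Cdkn1c was lower by -0.89 (adjusted p = 0.0155), and it was the only 1 of 11 that passed the test, beside 17.8% of all genes.

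Cyclins, cyclin-dependent kinases and E2F factors were called higher in BAT in 13 of 25 cases and lower in 5, with a median of 1.09. Over all genes tested in BAT, 27.5% were higher and 34.0% lower. Cdk1, which drives mitosis, was not well above background in BAT of controls and was at least 6.13-fold higher in KO mice. Ccna2 was higher by 3.24, while Ccnd3 was lower by -0.90 and Cdc25a by -1.33. Of 17 proliferation markers, 16 were higher in BAT and 0 lower, beside the same shares over all genes. Their median was 1.98, or 1.93 with genes not well above background in controls set to their bound. Top2a, a mitotic topoisomerase, was higher by 3.56 and was above background on 3 of 4 controls, and Birc5 (survivin) was higher by 3.45. In gWAT, 1 of 23 cyclin and kinase genes was higher, Cdk7 by 0.60, and 1 was lower, Ccng2 by -0.68. Of 15 proliferation markers 3 were higher, among them Pcna by 0.70 and Mcm3 by 0.59. Beside these gWAT counts, the background shares in that tissue were 9.97% for higher and 7.85% for lower. Leaving out any 1 gWAT array brought the count of higher proliferation markers to between 1 and 2. The higher and the lower count of cyclin and kinase genes each fell to 0 in some of these runs.

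Of the other Bcl2 family genes, 6 of 14 were higher and 5 lower in BAT, beside 27.5% and 34.0% over all genes. Bid, a BH3-only activator of Bax, was higher by 2.99 and Bcl2, which restrains Bax, by 2.71. Bnip3, a mitophagy receptor gene, was lower by -2.39 in BAT and by -0.99 in gWAT (adjusted p = 9.38e-06 and 0.0273). In gWAT, Bcl2l13 was higher by 0.68, and no other gene of the 16 tested was higher, beside 9.97% of all genes.

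**Figure D4:**
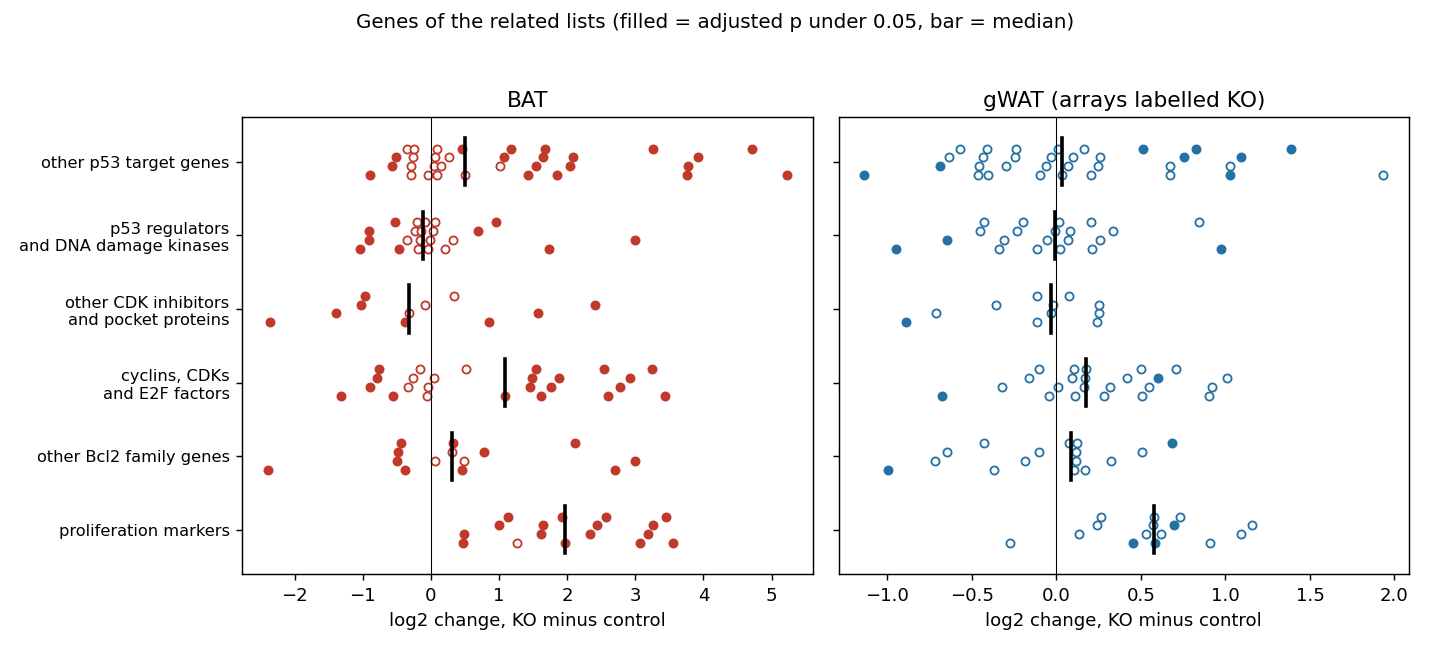
Log2 change (x axis) from controls to mice labelled KO of each tested gene of 6 related lists in BAT and gWAT, with filled points for an adjusted p under 0.05 and a bar at the list median. The x axes differ between the panels. In BAT the proliferation markers had a median of 1.98, and in gWAT of 0.58.

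Markers of some cell types changed as well, and those of others did not. Over all genes tested in BAT, 27.5% were higher and 34.0% lower. In BAT, 7 of 8 macrophage markers were higher in KO mice, and their summed signal over the 75th percentile went from 17.4 to 30.2 in controls to 80.9 to 131.5 in KO mice. All 6 adipocyte markers were lower in BAT, with summed signals from 2413 to 2631 in controls and from 810.1 to 1154 in KO mice, and 5 of 6 brown adipocyte markers were lower. Of 5 fibroblast and preadipocyte markers, 4 were higher in BAT. Of the 4 endothelial, 2 neutrophil and 1 B cell markers tested, 0 were called. Of 4 T cell markers tested 2 were higher, but the summed signal of their list overlapped, from 3.40 to 5.87 in controls and from 3.28 to 4.57 in KO mice. These are bulk samples, in which fewer cells of a type and less RNA per cell cannot be told apart. The part of these cells in the changes of Trp53, Mdm2, Cdkn2b and Bax was not tested. Against the 1 control on their own slide, the changes of these 4 genes were 1.28, 0.78, 1.76 and 1.58. With the 2 BAT KO arrays that held muscle transcripts left out, the same 4 members were called in BAT, with changes of 1.17, 0.71, 1.44 and 1.62.

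Over all genes tested in gWAT, 9.97% were called higher and 7.85% lower. In gWAT, 2 of 4 tested brown adipocyte markers, Cidea and Cox7a1, were higher in the arrays labelled KO, by 3.41 and 2.18. Ppargc1a changed by -0.52 (adjusted p = 0.365, limma) and Prdm16 by 0.11 (adjusted p = 0.733, limma), and neither passed the test. The summed signal of the list of 6 went from 11.9 to 20.2 in controls to 64.0 to 170.1 in the arrays labelled KO, and did not overlap. Cdkn1a, the member with the large gWAT change, was also the member with the largest difference between BAT and gWAT in controls. In BAT of controls the summed brown adipocyte signal was from 3185 to 3402. Of 8 macrophage markers, 2 were higher in the gWAT arrays labelled KO, and replicate 4, from the younger mouse, had the highest sum, 213.9, against 64.9 to 118.6 in the other 3. The summed signal of the 6 skeletal muscle markers was also higher in gWAT labelled KO, from 29.7 to 57.8 against 2.78 to 24.2 in controls. Of the 6, 2 to 5 were above background on each gWAT array. Only 3 were tested and 0 passed: Acta1 changed by 2.20 (adjusted p = 0.0504, limma), Mylpf by -0.09 and Tnnt3 by -0.63. Of the 5 fibroblast and preadipocyte, 4 endothelial and 4 mesothelial markers tested in gWAT, 0 were called. The part of brown adipocytes, macrophages and muscle in the Cdkn1a change was not tested. Against the 1 control on their own slide, the change of Cdkn1a was 1.90 and that of Mdm2 0.37. Without replicate 4 of the arrays labelled KO, the Cdkn1a change in gWAT was 2.22 (adjusted p = 0.00637).

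**Figure D5:**
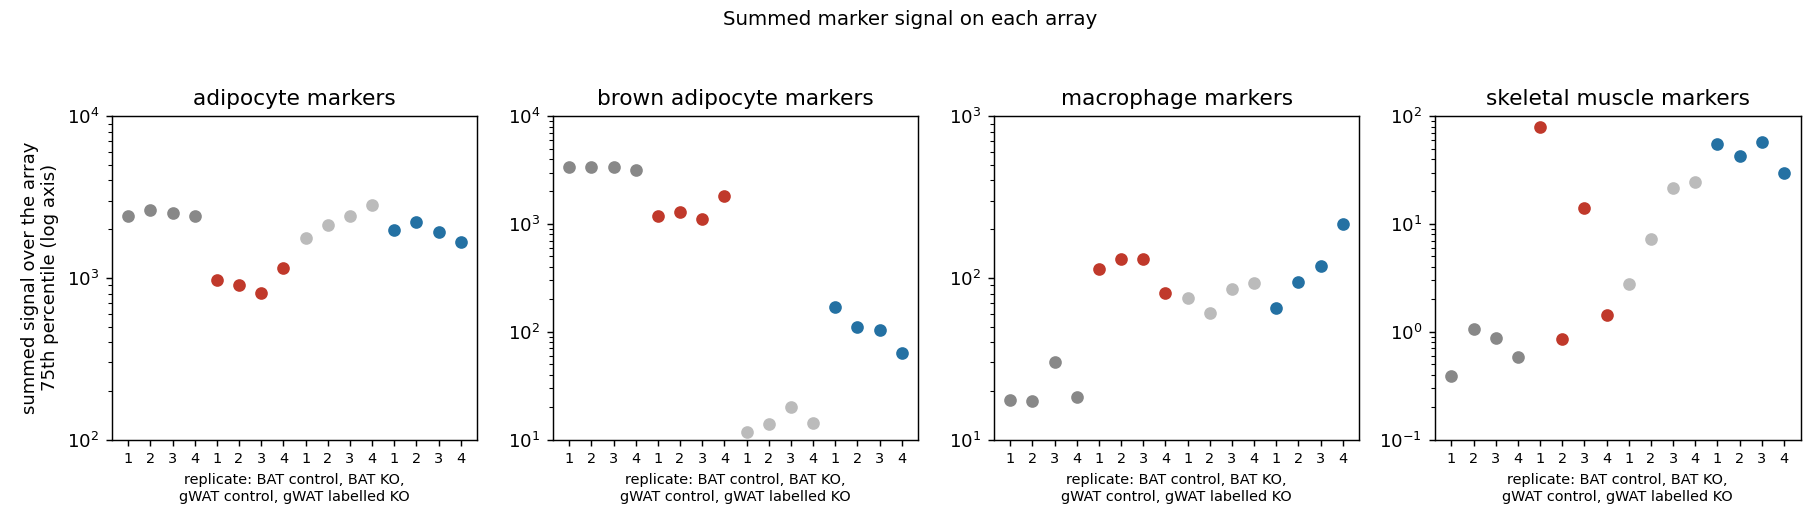
Summed signal of marker genes over the array's 75th percentile (log y axis) on each of the 16 arrays, for adipocyte, brown adipocyte, macrophage and skeletal muscle markers. Points are single arrays, with dark grey for BAT of controls, red for BAT of KO mice, light grey for gWAT of controls and blue for gWAT labelled KO. The summed signal of adipocyte markers was lower and that of macrophage markers higher on all BAT KO arrays. That of brown adipocyte markers was higher on all gWAT arrays labelled KO.

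Other genes with a pattern like that of Trp53 and Cdkn1a were ranked by the root mean square difference between their log2 levels and those of the member over the 16 arrays, after each gene's own mean was taken away. For Trp53 the closest of 12356 genes were Gorab (0.158), Rcc1 (0.166) and Cmtr2 (0.172), beside a spread of Trp53 about its own mean of 0.448. Rcc1 stood at 0.92 ± 0.10 in BAT of controls and at 2.13 ± 0.15 in BAT of KO mice (SD, n = 4). For Cdkn1a the closest of 14791 genes were Crls1 (0.526), Adssl1 (0.542) and Kcnk3 (0.553), beside a spread of 1.57. Kcnk3 stood at 5.43 ± 0.20 and 5.11 ± 0.31 in BAT of controls and KO mice, and at 0.998 ± 0.87 and 4.09 ± 0.43 in gWAT of controls and in the arrays labelled KO (SD, n = 4). Crls1, which makes the mitochondrial lipid cardiolipin, went from 2.33 ± 0.56 to 4.03 ± 0.43 in gWAT (SD, n = 4). The arrays share tissue and genotype, so these are descriptions of likeness and have no test.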

How the data were processed

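RNA of 16 samples was labelled with Cy3 and hybridized to 1-colour Agilent arrays. Per the labels, 100 ng of RNA was used per array, and the study's methods give another amount. The deposited scanner files, made with Agilent Feature Extraction 10.7.1.1, give a background-subtracted signal intensity per spot. A table of intensities normalized by the authors was used as an alternative, and differed from the scaling used here by a median of under 0.01 on the log2 scale on each array.

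Intensities were scaled to the 75th percentile of the array and log2 transformed. On a single array, 50.0% to 62.2% of the 56605 probes passed the scanner's test against background, and 32989 were named through RefSeq accessions (table of GRCm38.p6). Precision is limited by the number of arrays. The brightest probe of a gene was tested where all 4 arrays of 1 of the compared groups passed that test. Tests used limma 3.58.1 in R 4.3.3, on 8 arrays within a tissue and on 16 for differences between tissues, with Benjamini-Hochberg adjustment over all genes tested and a threshold of 0.05. The script was checked on simulated data. The labels do not name the animals, so p-values measure the spread between samples. The scanner files used here hold no mean signal, so the normexp alternative used median signals with an offset of 50. Genes named from a related list had the largest changes past the threshold without overlap of the groups, up to 2 in each direction. Gtse1 and Ckap2, and the brown adipocyte and muscle marker genes given with a change, were named after their values were seen. The neighbour genes are the 3 closest. The members, lists and tests were chosen with earlier results of these data known.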

Additional observations from a re-analysis of the deposited data

Results flagged for a closer look

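A gap test on the 4 arrays of a group set apart Trp53 in BAT KO, where replicate 1 stood at -0.78 against -0.42 to -0.37 in the other 3. It also set apart Ccng1 in the gWAT arrays labelled KO, where replicate 3 stood at 3.61 against 3.25 to 3.26. Chance alone sets apart about 1 in 20 groups, and there were 10 members with 4 groups each. The change with genotype differed between the tissues for 5 members, with differences, gWAT minus BAT, of -1.02 for Trp53, 2.74 for Cdkn1a, -1.39 for Cdkn2b, 0.68 for Ccng1 and -1.19 for Bax. The second Cdkn1a probe, A_55_P1986282, which entered no test, had a mean log2 level of -3.72 in BAT of KO mice and was well above background on 3 of 4 arrays there, against 1 of 4 in controls.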

How the results depend on the processing

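Trp53, Cdkn2b and Bax in BAT and Cdkn1a in gWAT kept their direction under every alternative tried, and their calls held in every alternative with a test but 1, the slide as a fixed block for Cdkn1a. Among single members, 609 of the alternative values that did not leave out an array kept direction and side of the threshold, 37 lost a call, 27 gained 1, 24 changed sign and 13 moved by more than the spread between arrays. The cause of the shifts was not tested. The number of members called in BAT was 4, all higher, and 7 with spike-in scaling and 5 with normexp, also all higher. With Actb and Rplp0 scaling, 3 were called higher and 3 lower. In gWAT 2 members were called, but 1 with quantile normalization, median centring, Actb and Rplp0 scaling or normexp. The number was also 1 with no filter on dim probes or slide as a random block. It was 6 with spike-in scaling, 4 with all 16 arrays in 1 fit, 3 with the methods' t-test and 0 with slide as a fixed block. Members whose change differed between tissues numbered 5, with 2 changes more positive and 3 less positive in gWAT. These were 1 and 5 with quantile normalization and 1 and 3 with median centring, spike-in scaling, normexp, the deposited values or no filter. Slide as a random block, or leaving out the BAT KO arrays with muscle transcripts, also gave 1 and 3. With Actb and Rplp0 scaling and with slide as a fixed block, 3 members differed. Between the tissues of mice labelled KO they numbered 5, and 3 with spike-in scaling and 1 with slide as a fixed block. Leaving out 1 array at a time gave 4 to 6 members in BAT, 1 to 2 in gWAT, 4 to 5 for the difference of changes, 6 to 7 between control tissues and 4 to 7 between tissues labelled KO.

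With the replicate number as a block, 1 member was called in gWAT and 4 in BAT, and 2 list genes were higher and 3 lower in gWAT. Same-numbered arrays did not deviate together in all pairs. Their correlations ran from -0.14 to 0.44 in gWAT. Between BAT and gWAT they were 0.224, 0.157, 0.182 and -0.0725 in controls and 0.108, 0.11, 0.295 and -0.185 in mice labelled KO, and the labels do not say that a number marks 1 animal, so the numbers were not taken to pair samples. A block of number within genotype gave 6 members for the difference of changes, with Cdkn2a gained, 7 between control tissues, with Bbc3 gained, and 7 between tissues labelled KO, with Cdkn2a and Trp53inp1 gained. The block ended the gWAT call of Mdm2 (adjusted p = 0.137) and no other member's call with genotype.

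Genes of the related lists called lower in BAT numbered 23, and 9 with spike-in and 52 with Actb and Rplp0 scaling. Those higher in gWAT numbered 12, and 36 with spike-in scaling, 3 with no filter and 0 with slide as a fixed block. Those lower in gWAT numbered 7, and 16 with quantile normalization, 2 with median centring, 0 with spike-in scaling, 14 with Actb and Rplp0 scaling, 17 with normexp, 3 with no filter and 1 with slide as a fixed block. With 1 array left out there were 56 to 61 higher and 21 to 25 lower in BAT, and 3 to 11 higher and 3 to 7 lower in gWAT.

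Sign changes were found among members that did not pass the test. In BAT, spike-in scaling gave 0.0624 for Cdkn1a, 0.43 for Ccng1 and 0.19 for Bbc3. Ccng1 in BAT was 0.0931 with quantile normalization and 0.0397 with normexp. Cdkn1b in BAT was -0.33 with Actb and Rplp0 scaling and -0.0666 with slide as a fixed block. In gWAT, median centring gave 0.0624 for Cdkn1b and 0.0017 for Bbc3, spike-in scaling 0.38 and 0.32, and Actb and Rplp0 scaling -0.0225 for Cdkn2a. Slide as a fixed block gave -0.0899 for Trp53inp1 and 0.29 for Bbc3 in gWAT. The difference of changes with Actb and Rplp0 scaling was 0.32 for Mdm2 and 0.21 for Cdkn1b. Between control tissues, Cdkn1b was -0.0230 with median centring, -0.32 with Actb and Rplp0 scaling, -0.36 with slide as a fixed and -0.0260 with slide as a random block, and Trp53 was -0.17 with Actb and Rplp0 scaling. Between tissues labelled KO, Ccng1 was 0.0293 with spike-in and 0.0917 with Actb and Rplp0 scaling, and Bbc3 was 0.26 with slide as a fixed block. Leaving out 1 array took the gWAT change of Bbc3 to between -0.31 and 0.0438, of Cdkn2a to between -0.36 and 0.34, of Trp53 to between -0.0145 and 0.17 and of Cdkn1b to between -0.13 and 0.0174, and the control tissue difference of Cdkn1b to between -0.0820 and 0.13.

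Over all genes, 8775 were called in BAT, 3927 of them higher, against 7212 higher of 9080 with spike-in and 1917 higher of 10817 with Actb and Rplp0 scaling. In gWAT 2521 were called, 1410 of them higher, against 983 of 1384 with median centring, 4822 of 5066 with spike-in scaling, 616 of 1138 with no filter, 557 of 1087 with the replicate number as a block, 66 of 184 with slide as a fixed block and 2436 of 4038 in the fit on all 16 arrays. The methods' t-test called 4664 genes in gWAT unadjusted and 1612 adjusted. The difference of changes was called for 7161 genes, 4056 of them positive, against 3264 with slide as a fixed block and 7165 positive of 8560 with Actb and Rplp0 scaling. Between control tissues 4396 of 9684 were higher in gWAT, against 4960 of 8514 with spike-in and 2997 of 10307 with Actb and Rplp0 scaling. Between tissues labelled KO 3314 of 6690 were higher in gWAT, against 3597 of 5319 with spike-in, 4720 of 6600 with Actb and Rplp0 scaling and 951 of 1782 with slide as a fixed block. Low signal limits Cdkn2a, which was not well above background on any BAT control array.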
